A study of Mus musculus with 6 samples.

Results

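Basement membranes are thin sheets of extracellular matrix on which endothelial and epithelial cells rest. Laminins, each a trimer of an alpha, a beta and a gamma chain, form one network, and type IV collagen forms another. Nidogens and the proteoglycan perlecan tie these networks together. In bone marrow the vessels carry such a membrane, which is loose and interrupted around the sinusoids, and fibrillar collagens are made mainly by stromal and bone-forming cells. The genes of this matrix were compared between YFP-positive and YFP-negative LSK cells. They were chosen by symbol, with earlier results of these data known. The set held every collagen and laminin chain gene on the array with a single-symbol probe. Nid1, Nid2, Hspg2, Agrn and Sparc were added by name. That gave 59 of 22180 genes, of which 44 were collagens, 10 were laminins and 5 were the genes added by name.

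LSK cells lack mature lineage markers and carry Sca-1 and Kit, the marrow gate of haematopoietic stem cells and early progenitors. The 6 arrays came from C57Bl6 mice of genotype Tg(Cdh5-Cre/ERT2) crossed to Rosa 26 YFP, in which tamoxifen lets a Cre driven by Cdh5, the VE-cadherin gene of endothelium, switch on YFP permanently in a cell and its descendants. Both populations had the same history, with induction at 1, 2 and 3 days of age and sorting at postnatal day 27, so they differ by the sort on YFP: 3 samples were YFP-positive and 3 YFP-negative. The marrow had been treated with collagenase before the sort. Nothing in the labels says that the 3 samples of a population came from different mice, so p-values here reflect only how much these samples vary, possibly for technical reasons.

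Values are log2 expression values of 1 probe a gene, and differences are YFP-positive minus YFP-negative. Array medians over all probes were 3.62 to 3.68, and probes were not called present or absent, so values around or under these medians may be background, and folds taken against them may be too small. Of 20 endothelial marker genes 18 were higher in YFP-positive samples past the threshold, and the log2 of their summed linear level was 13.63 to 14.16 there against 9.98 to 10.68. Of 12 genes of the stem and progenitor gate 8 were lower (summed level 9.49 to 10.08 against 11.88 to 12.12), among them Kit by -0.89 (adjusted p = 0.0496, limma). In 6 refits that each dropped a single array, 5, 4 and 6 of these 8 calls were kept as YFP-positive replicates 1 to 3 were dropped in turn, and 5, 3 and 4 as the YFP-negative ones were, Kit in none of them; 13 to 16 of the 18 endothelial calls were kept. Of 14 leukocyte genes 2 were lower (Vav1 and Fermt3; 1 to 2 of these calls kept in the refits), and YFP-positive replicate 3 stood apart: its summed leukocyte level was 12.95, against 10.81 and 11.18 in replicates 1 and 2 and 12.67 to 12.74 in YFP-negative samples. The matrix results below come from the same samples as these endothelial, progenitor and leukocyte levels, whose part in them was not tested. In sorted bulk samples, fewer cells of a type and less RNA per cell cannot be told apart.

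YFP-positive LSK samples carried higher levels of a small set of basement membrane genes while most collagens differed little between the populations. With limma at an adjusted p under 0.05, 9 of the 59 genes were higher in YFP-positive samples and 0 were lower (14, or 23.7%, at an unadjusted p under 0.05, against 17.2% of all genes; the unmoderated model called 5 higher and 0 lower). Over all 22180 genes 2.88% were higher and 1.96% lower by the same test. The 9 were Sparc, Nid1, Hspg2, Lamc1, Col6a3, Nid2, Col4a2, Lamb2 and Lamb1. They made up 4 of the 5 genes added by name, 3 of 10 laminins and 2 of 44 collagens. In 17 of the 59 genes every YFP-positive array lay above every YFP-negative array, against 10.8% of all genes, and in 0 did every YFP-positive array lie below, against 11.9% of all genes. The median difference was 0.09 over the 59 genes and -0.01 over all genes. Of the 59, 42 differed by under 0.25 in either direction, but the share of all genes doing so was not counted. The 95% interval of the difference stayed under 1 in either direction for 45 of the 59 genes, against 16117 of all 22180 genes. Small differences were thus not shown to be particular to this set. At the other end 11 of the 59 were higher by at least 1, against 955 (4.31%) of all genes.

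**Figure D1:**
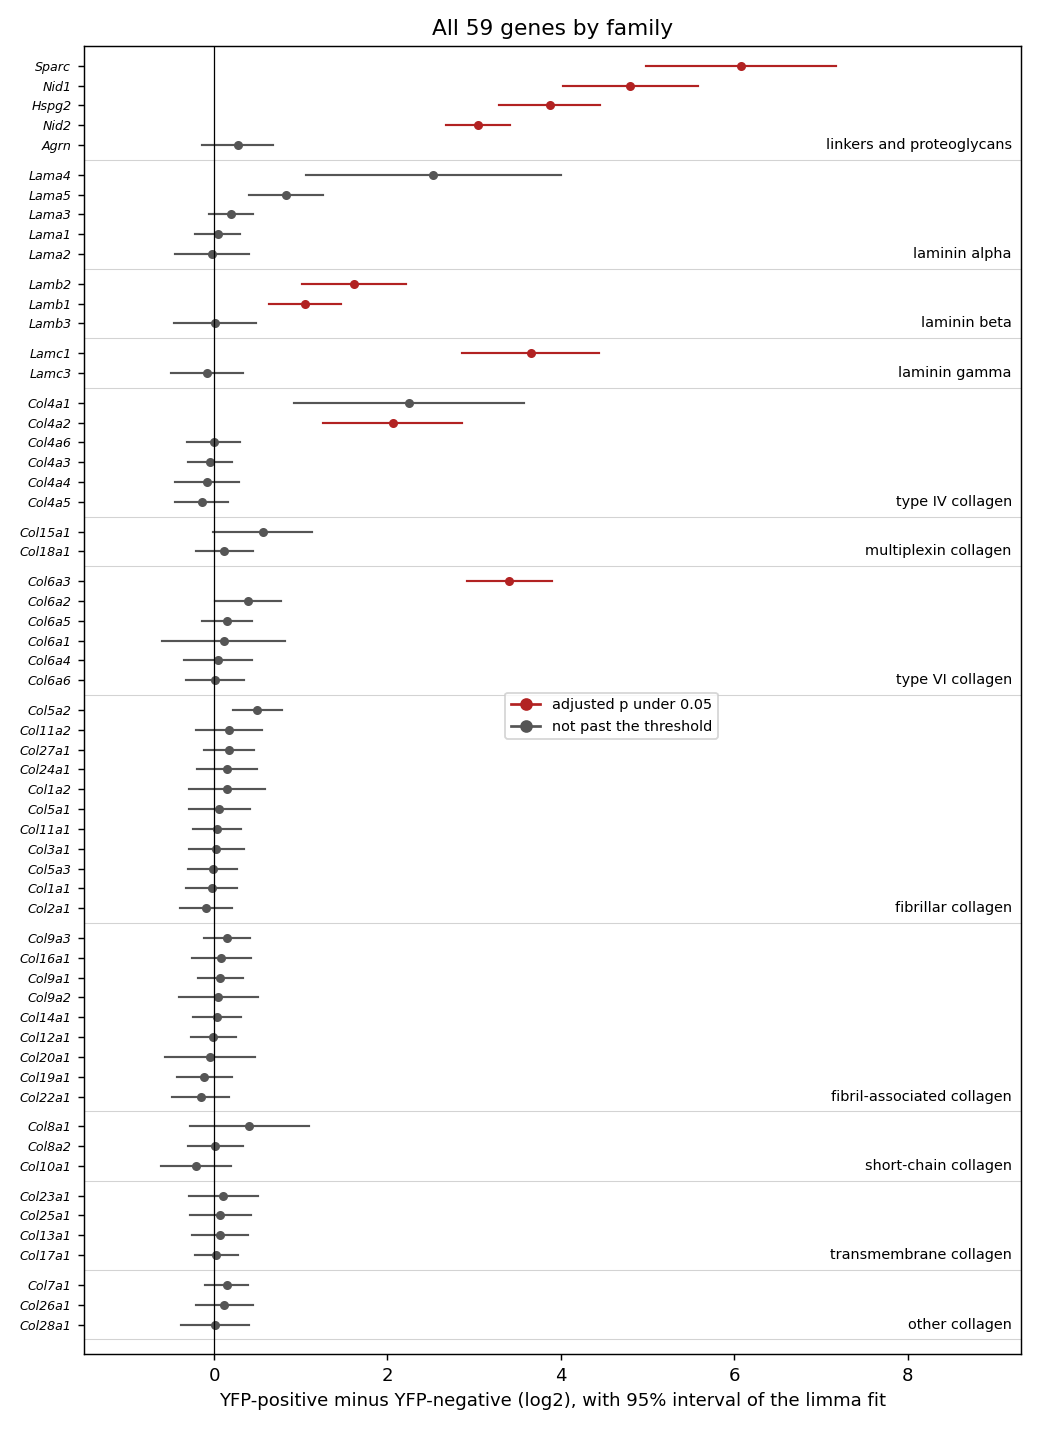
Each point is the YFP-positive minus YFP-negative difference of 1 gene on the log2 scale, with the 95% interval of the limma fit on 3 against 3 arrays, grouped by family; red marks an adjusted p under 0.05. The 9 red points lie between 1.05 and 6.08, whereas nearly all fibrillar, fibril-associated and transmembrane collagens lie close to 0.

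Sparc, Nid1 and Hspg2 had the largest differences of the 59 genes. Sparc encodes a secreted glycoprotein that binds collagen and is abundant in basement membranes. It measured 11.31, 11.34 and 11.04 on the YFP-positive arrays and 4.09, 5.50 and 5.85 on the YFP-negative arrays. The populations were far apart on every array, and the YFP-negative values spread more than the YFP-positive ones. The difference was 6.08 ± 0.45 (SE), or 67.7-fold (adjusted p = 0.00186, limma), the 20th largest rise of all genes tested.

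Nid1 and Nid2 encode the nidogens, which bind both the laminin gamma chain and type IV collagen. Nid1 measured 9.10, 9.98 and 8.74 in YFP-positive and 4.35, 4.65 and 4.42 in YFP-negative samples. It rose 27.9-fold (4.80 ± 0.32, adjusted p = 0.00125, limma). Its other probe was dimmer in YFP-negative samples, at 2.85, 2.78 and 3.05, and gave a larger difference of 6.64, so the size of the Nid1 rise depends on the probe while its direction does not. Nid2 measured 6.74, 6.63 and 6.48 against 3.46, 3.83 and 3.43, the latter at the level of the array medians. It rose 8.23-fold (3.04 ± 0.15, adjusted p = 0.000395, limma).

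Hspg2 and Agrn encode the large heparan sulfate proteoglycans perlecan and agrin. Hspg2 stood at 8.53, 8.85 and 7.95 in YFP-positive and at 4.62, 4.44 and 4.66 in YFP-negative samples, with no overlap. It rose 14.6-fold (3.87 ± 0.24, adjusted p = 0.000912, limma). Agrn stood at 4.42, 4.05 and 3.88 against 3.97, 3.81 and 3.76, and these ranges overlap. Its difference of 0.27 did not pass (95% interval -0.14 to 0.68, adjusted p = 0.512, limma). The calls of Sparc, Nid1, Nid2 and Hspg2 held in all 6 refits (highest adjusted p = 0.0128, for Sparc).

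The stretches just upstream of 4 of the genes with the largest rises are shown because these genes were all higher in YFP-positive samples. They come from RefSeq, GRCm38.p6, read 5′ to 3′ on the gene's own strand and ending before its outermost annotated start. The windows are chr11:55420081-55420330 (minus strand) for Sparc, chr13:13437352-13437601 (plus) for Nid1, chr4:137468553-137468750 (plus) for Hspg2 and chr1:90844002-90844221 (minus) for Col6a3. Capitals mark matches to 4 motifs, searched on either strand. The GC box, a motif of many promoters that lack a TATA box, was searched as GGGCGG. The TATA box, which positions the start of transcription, was searched as TATAAA. The CCAAT box was searched by the letters of its name. The AP-1 site, bound by the Fos and Jun families, was searched as TGANTCA. No matches overlap in the stretches shown.
Sparc: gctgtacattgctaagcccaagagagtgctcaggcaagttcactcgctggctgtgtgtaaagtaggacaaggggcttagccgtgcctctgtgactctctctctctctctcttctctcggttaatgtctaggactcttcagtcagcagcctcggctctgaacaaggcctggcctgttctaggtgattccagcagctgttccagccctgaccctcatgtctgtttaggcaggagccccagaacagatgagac
Nid1: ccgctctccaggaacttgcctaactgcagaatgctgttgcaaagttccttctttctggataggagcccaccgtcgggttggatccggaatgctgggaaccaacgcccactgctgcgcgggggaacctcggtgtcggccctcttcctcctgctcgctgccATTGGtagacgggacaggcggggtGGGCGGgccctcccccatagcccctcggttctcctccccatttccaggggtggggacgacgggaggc
Hspg2: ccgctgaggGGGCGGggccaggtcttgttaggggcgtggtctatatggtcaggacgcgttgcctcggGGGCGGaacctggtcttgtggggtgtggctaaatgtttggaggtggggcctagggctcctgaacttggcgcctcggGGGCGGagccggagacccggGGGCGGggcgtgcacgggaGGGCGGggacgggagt
Col6a3: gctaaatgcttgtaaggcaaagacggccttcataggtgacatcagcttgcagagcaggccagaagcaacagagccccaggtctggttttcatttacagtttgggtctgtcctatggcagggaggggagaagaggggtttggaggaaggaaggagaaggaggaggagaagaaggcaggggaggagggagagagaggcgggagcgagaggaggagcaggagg
The Hspg2 stretch held 5 GC boxes and the Nid1 stretch 1 GC box and 1 CCAAT box, while the Sparc and Col6a3 stretches held 0 of the 4 motifs. A promoter window of 300 bases (250 before and 50 after the start) was found for 44 of the 59 genes, with 49 windows in all. A GC box was present in 61.2% of these 49 windows, against 35.7% of all 32851 windows. A TATA box was present in 10.2% against 13.6%, a CCAAT box in 30.6% against 37.4% and an AP-1 site in 2.04% against 7.81%. Of the 9 genes that rose, 7 had a window, of which 4 held a GC box (Hspg2, Col4a2, Lamb1 and Nid1) and 0 a TATA box. These are matches of letters, with no measurement of binding.

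Laminin trimers of endothelium are built from an alpha-4 or alpha-5 chain with beta and gamma chains common to many tissues. Lamc1, the gamma chain of most laminins, measured 8.91, 8.62 and 7.67 in YFP-positive and 4.82, 4.59 and 4.84 in YFP-negative samples. It rose 12.6-fold (3.65 ± 0.32, adjusted p = 0.00341, limma), and its call held in all 6 refits but not with the unmoderated model, which also ended the calls of Lamb1, Lamb2 and Col4a2. Lamb2, a beta chain of vessels, nerve and muscle, measured 5.28, 5.69 and 5.10 against 4.13, 3.76 and 3.36. It rose 3.05-fold (1.61 ± 0.25, adjusted p = 0.0213, limma). Lamb1, the broadly expressed beta chain, measured 5.15, 4.61 and 4.74 against 3.94, 3.68 and 3.74. It rose 2.07-fold (1.05 ± 0.17, adjusted p = 0.0267, limma). In both beta chains the YFP-positive arrays lay above the YFP-negative arrays without overlap, but levels were low throughout. Lamb2 missed the threshold in 4 refits, those lacking YFP-positive replicate 1 or 2 or YFP-negative replicate 2 or 3 (highest adjusted p = 0.0840), and Lamb1 in 4, those lacking YFP-positive replicate 1 or any YFP-negative replicate (highest adjusted p = 0.101).

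Neither endothelial alpha chain passed. Lama4, the alpha chain of vascular laminin, measured 6.93, 7.16 and 4.86 in YFP-positive and 3.67, 3.93 and 3.76 in YFP-negative samples. All 3 YFP-positive values were above the YFP-negative ones, with replicate 3 much the lowest of them. The difference was 2.53 ± 0.60 (adjusted p = 0.0813, limma), and Lama4 passed without YFP-positive replicate 3, where the difference was 3.26 (limma adjusted p = 0.000861; the 6 refits reached 0.217). Lama5, the other endothelial alpha chain, measured 5.22, 5.01 and 4.59 against 4.08, 4.14 and 4.10, a difference of 0.83 ± 0.17 (adjusted p = 0.0567, limma). It too passed without YFP-positive replicate 3 (refits ranged from 0.0166 to 0.166). The remaining chains belong mainly to epithelium, muscle and nerve. Lama1, Lama2, Lama3, Lamb3 and Lamc3 differed by -0.08 to 0.19, and Lama1, Lama2 and Lama3 lay under the array median on every YFP-positive array.

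**Figure D2:**
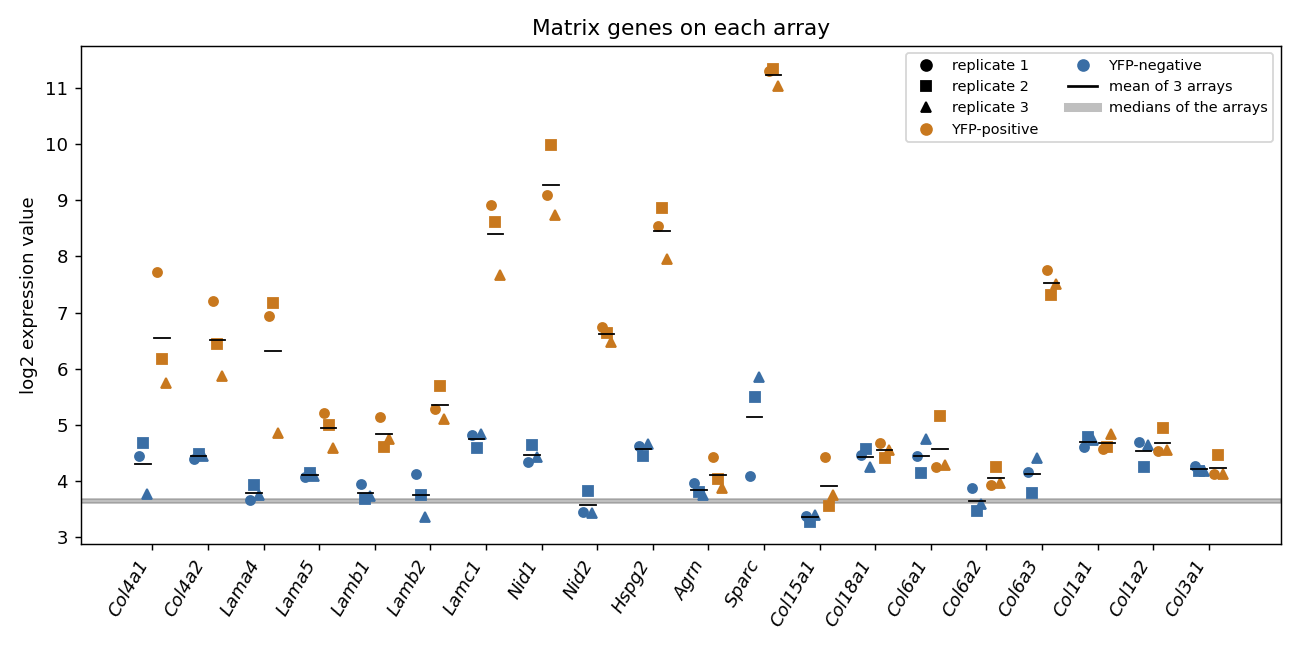
Each symbol is the log2 expression value of 1 gene on 1 array, orange for YFP-positive and blue for YFP-negative samples, with shapes for replicates 1 to 3, a black line for the mean of 3 arrays and a grey band for the array medians (3.62 to 3.68). Sparc, Nid1, Hspg2, Lamc1, Col6a3 and Nid2 separate widely, Lama4 has 1 low YFP-positive value, and Col1a1, Col1a2 and Col3a1 overlap.

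Type IV collagen is the network-forming collagen of basement membranes, and its chains are encoded in 3 head-to-head gene pairs. Col4a1 and Col4a2 make the form found in nearly every basement membrane. Col4a2 measured 7.21, 6.45 and 5.86 against 4.40, 4.49 and 4.45. It rose 4.18-fold (2.06 ± 0.33, adjusted p = 0.0242, limma). Col4a1 measured 7.73, 6.17 and 5.74 against 4.46, 4.67 and 3.76. The arrays of Col4a1 did not overlap, but its difference of 2.25 ± 0.54 did not pass (adjusted p = 0.0845, limma). The difference of Col4a1 passed when testing was limited to genes whose mean over all 6 arrays was above the median (adjusted p = 0.0452, limma). The Col4a2 call was lost in 4 refits, those lacking YFP-positive replicate 2 or any YFP-negative replicate (highest adjusted p = 0.0951), and with the replicate number as a block (adjusted p = 0.0576, limma). Both genes were highest in YFP-positive replicate 1 and lowest among YFP-positive arrays in replicate 3.

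Col4a1 and Col4a2 are transcribed in opposite directions from neighbouring starts. In the RefSeq promoter table these start sites lie 21 bases apart, and the outermost annotated starts lie 84 bases apart, so that the annotated genes overlap. The 22 bases from one promoter-table start to the other, chr8:11312805-11312826 of GRCm38.p6, lie within both annotated genes. They are shown on the strand of Col4a2 to show how close the starts of this pair are, and capitals mark a GC box.
Col4a1 and Col4a2: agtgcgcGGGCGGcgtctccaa
The other type IV pairs make the chains of kidney, lung, eye and smooth muscle basement membranes. Col4a3 measured 3.70 to 3.73 in YFP-positive and 3.68 to 3.87 in YFP-negative samples. Col4a4 measured 2.82 to 3.24 against 3.05 to 3.26, Col4a5 2.86 to 3.17 against 3.11 to 3.26 and Col4a6 3.85 to 4.20 against 4.04 to 4.05. These 4 genes differed by -0.14 to 0.00 and none of them passed limma's test (0 of 4 had an unadjusted p under 0.05).

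Type VI collagen forms beaded filaments beside basement membranes, classically as a trimer of the chains encoded by Col6a1, Col6a2 and Col6a3. Of these chains Col6a3 passed and the other two did not. Col6a3 measured 7.76, 7.32 and 7.51 in YFP-positive and 4.16, 3.80 and 4.42 in YFP-negative samples, and rose 10.6-fold (3.41 ± 0.20, adjusted p = 0.000808, limma), with its call kept in all 6 refits. Col6a2 measured 3.93, 4.25 and 3.97 against 3.89, 3.48 and 3.60, a difference of 0.39 (95% interval 0.01 to 0.78, adjusted p = 0.275, limma). Col6a1 measured 4.25, 5.16 and 4.29 against 4.45, 4.15 and 4.75, a difference of 0.11 (95% interval -0.60 to 0.82, adjusted p = 0.907, limma). A dimmer probe of Col6a1 differed by 0.33. A probe that names Col6a1 together with Rps21 and 2 predicted genes went the other way, with a difference of -1.07. It was not used because it names several genes. Col6a4, Col6a5 and Col6a6 differed by 0.01 to 0.15.

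Col15a1 and Col18a1 encode collagens of the vascular and epithelial basement membrane zone whose ends can be released as fragments, endostatin among them. Col15a1 measured 4.44, 3.57 and 3.75 against 3.39, 3.28 and 3.40. Its arrays did not overlap, but they were close to the array medians and the difference of 0.56 did not pass in limma (95% interval -0.01 to 1.13). Col18a1 measured 4.68, 4.42 and 4.55 against 4.46, 4.58 and 4.25, which overlap (difference 0.12, adjusted p = 0.757, limma).

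The 11 fibrillar collagens, the main tensile fibres of bone, skin and tendon, gave 0 calls with limma (unadjusted p under 0.05 in 1, unmoderated calls 0). All 11 had a 95% interval of the difference between -1 and 1, as did 16117 of all 22180 genes. Col1a1, a chain of type I collagen and the main collagen gene of bone-forming cells, measured 4.58, 4.60 and 4.84 in YFP-positive and 4.61, 4.78 and 4.72 in YFP-negative samples, a difference of -0.03 (95% interval -0.32 to 0.26, adjusted p = 0.946, limma). Col3a1, of reticular fibres, measured 4.13, 4.46 and 4.12 against 4.27, 4.19 and 4.17, a difference of 0.03 (95% interval -0.29 to 0.35). Col1a2, the partner chain of Col1a1, measured 4.54, 4.95 and 4.55 against 4.69, 4.26 and 4.64, a difference of 0.15 on its brighter probe. A second Col1a2 probe measured 4.36, 5.13 and 4.66 against 3.60, 3.77 and 3.60, a difference of 1.06, so the probes of this gene disagree. As the mean of its probes Col1a2 differed by 0.60 (adjusted p = 0.134, limma). Col5a2, a regulator of fibril diameter, was the member with the unadjusted p under 0.05. It measured 4.19, 4.03 and 3.97 against 3.69, 3.50 and 3.49, a difference of 0.50 ± 0.12 (adjusted p = 0.0790, limma).

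Fibril-associated, short-chain, transmembrane and other collagens numbered 19, and limma called 0 of them (unadjusted p under 0.05 in 0, unmoderated calls 0). Their differences ran from -0.21 for Col10a1, a collagen of growth plate cartilage, to 0.41 for Col8a1, a network collagen of vessel walls. Col8a1 measured 4.19, 5.02 and 5.18 against 4.43, 4.17 and 4.57, with replicates 2 and 3 of the YFP-positive samples above all others (adjusted p = 0.572, limma). For 39 of all 44 collagens the 95% interval stayed inside -1 to 1, against 16117 of all 22180 genes. Of the 44, 10 were under the array median on every YFP-positive array, against 8261 of all 22180 genes.

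Markers of the stromal cells that make fibrillar collagen stood as follows. Of 10 osteoblast and cartilage genes limma called 0 (unadjusted p under 0.05 in 1, unmoderated calls 0). Of these, 5 (Dmp1, Phex, Acan, Matn1 and Matn3) lay under the array median on every YFP-positive array, as did 8261 of all 22180 genes. Their summed level was 6.92 to 8.45 in YFP-positive and 6.96 to 7.01 in YFP-negative samples, and the high value was replicate 2, where Ibsp stood at 7.87. Of 15 mesenchymal stromal genes, Vcam1, also an adhesion protein of marrow endothelium, was higher, and Angpt1 and Thy1, both also made by blood progenitors, were lower; Thy1 kept its call in 1 of the 6 refits, that lacking YFP-positive replicate 1 (highest adjusted p = 0.105). Of the 15, 9 had an unadjusted limma p under 0.05, against 17.2% of all genes. Every YFP-positive array lay above every YFP-negative array in 7, against 10.8% of all genes. Every YFP-positive array lay below in 3, against 11.9% of all genes. Cxcl12 measured 5.18, 6.82 and 7.63 against 4.25, 4.87 and 5.04, and Foxc1 and Ebf3 differed by 0.85 and 0.79, none of which passed. Pdgfra, Lum, Dcn, Dpt and Kitl lay under the median on every YFP-positive array. Lepr, a defining marker of these cells, measured 3.72, 6.02 and 4.62 against 3.00, 2.84 and 2.90 and did not pass. The list's summed level was 10.40 to 10.79 against 9.40 to 9.99. Of 10 pericyte and smooth muscle genes, Kcnj8 and Mcam were higher and the other 8 did not pass, with differences from -0.05 for Cnn1 to 0.51 for Tagln; the summed level was 9.83 to 10.98 against 7.31 to 7.64. Of 8 adipocyte genes Pparg, Fabp4 and Lpl were higher and the other 5 did not pass. The summed level of the adipocyte list was 12.85 to 13.14 in YFP-positive and 7.64 to 8.89 in YFP-negative samples. Every YFP-positive array lay above every YFP-negative array in 5 of the 8, while Cidec and Lep lay under the array median on every YFP-positive array. Of 12 macrophage genes Vcam1, Mrc1 and Mertk were higher, Mertk with its call kept in 2 of the 6 refits. The other 9 macrophage genes differed by -0.22 to 0.20. The summed level of the macrophage list was 11.20 to 11.49 in YFP-positive and 7.53 to 8.34 in YFP-negative samples. Neutrophil genes summed to 13.50 to 14.67 against 12.47 to 14.39. The part of these cell types in the matrix results was not tested.

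**Figure D3:**
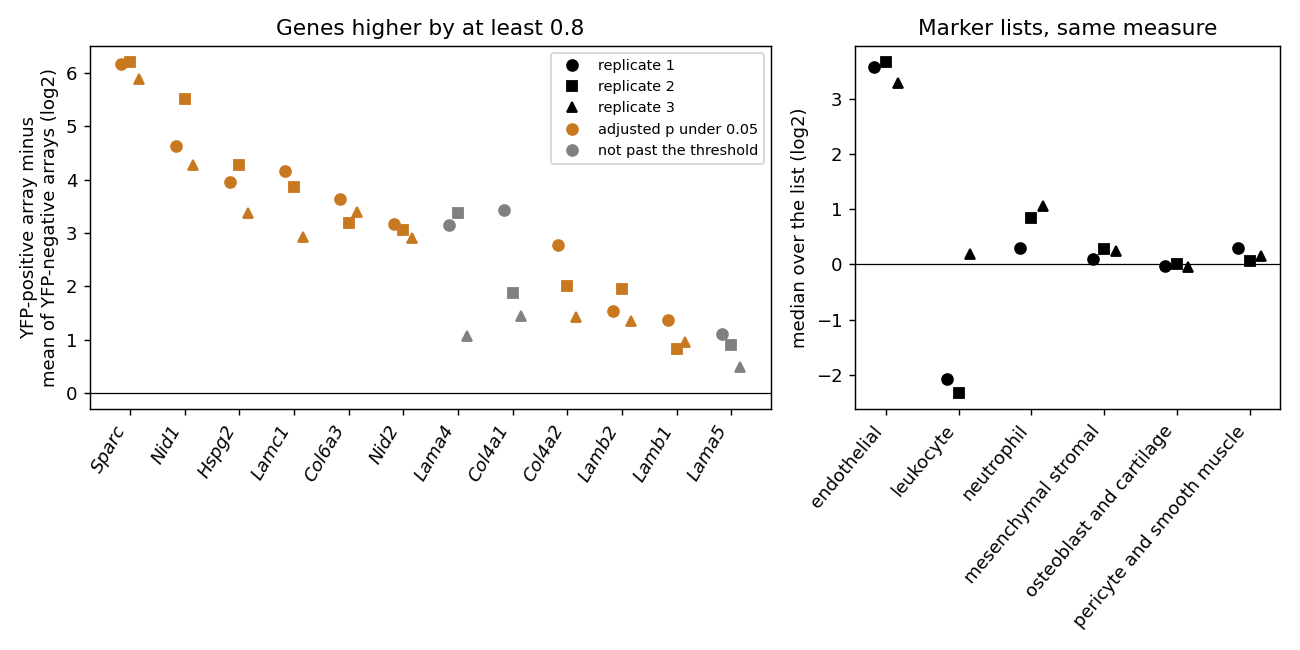
The left panel shows, for the 12 genes higher by at least 0.8, each YFP-positive array minus the mean of the 3 YFP-negative arrays on the log2 scale, with shapes for replicates and grey for genes that did not pass; the right panel shows the median of the same quantity over 6 marker lists. Replicate 3 (triangles) is the lowest for most genes on the left and is the replicate whose leukocyte median is near 0 (0.19, against -2.07 and -2.33).

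Among YFP-positive samples the high genes did not all vary in the same way. Replicate 3 had the lowest value for 7 of the 9 genes that rose, and replicate 2 for the other two, Col6a3 and Lamb1. Over all 639 genes higher in YFP-positive samples replicate 3 was the lowest for 60.4%, and for 17 of the 18 endothelial markers that rose. Lama4 had the widest YFP-positive spread of the 59 genes, with an SD of 1.27 over 3 arrays, followed by Col4a1 with 1.04, and Nid2 and Sparc had 0.13 and 0.17. Without YFP-positive replicate 3, 11 genes passed, the 9 and also Lama4 and Lama5. Without YFP-positive replicates 1 and 2, 7 and 7 of the 9 passed, and without YFP-negative replicates 1, 2 and 3, 7, 6 and 6. Among all genes 1074 passed in the full fit. In the refits without YFP-positive replicates 1, 2 and 3, 559, 607 and 1185 genes passed. In those without YFP-negative replicates 1, 2 and 3, 463, 430 and 611 passed. Sparc, Nid1, Hspg2, Lamc1, Col6a3 and Nid2 passed in all 6 refits.

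Genes that modify, bind or accompany this matrix were read from 3 lists. For all 3 lists the shares over all genes with limma were 2.88% higher, 1.96% lower and 17.2% at an unadjusted p under 0.05. Of 28 genes of collagen synthesis and crosslinking, 5 rose and 0 fell (7 at an unadjusted p under 0.05), with a median difference of 0.28 against -0.01 for all genes. Pxdn, the peroxidasin that crosslinks type IV collagen, rose 27.0-fold, from 3.13, 2.87 and 2.80 to 7.87, 7.93 and 7.26 (4.76 ± 0.21, adjusted p = 0.000299, limma). P3h2, a prolyl hydroxylase that acts on type IV collagen, rose 14.5-fold, from 4.96, 4.44 and 4.01 to 8.94, 8.99 and 7.04 (adjusted p = 0.0197, limma). Plod1, a lysyl hydroxylase, rose 8.67-fold, and Serpinh1, the collagen chaperone of the endoplasmic reticulum, rose 4.07-fold. P3h3 rose 1.51-fold. P3h2 kept its call in 1 refit, that lacking YFP-positive replicate 3 (highest adjusted p = 0.0791), and P3h3 in 0 (highest adjusted p = 0.144), whereas Pxdn, Plod1 and Serpinh1 kept theirs. Of those that did not pass, P4hb and Loxl3 had the smallest p, with differences of 0.47 and 0.31. Lox, which crosslinks fibrillar collagen, measured 3.05 to 3.41 against 2.84 to 2.96.

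Of 16 receptors for collagen and laminin, 4 rose and 0 fell (6 at an unadjusted p under 0.05, median 0.08), all 4 of them integrin chains. Itga1, a collagen-binding chain with preference for type IV collagen, rose 15.2-fold, from 4.18, 3.70 and 4.07 to 7.89, 8.37 and 7.46 (3.92 ± 0.26, adjusted p = 0.00125, limma). Itga2, another collagen-binding chain, rose 2.82-fold, Itga6, a laminin-binding chain, 1.95-fold, and Itgb1, their shared partner, 1.99-fold (adjusted p = 0.0497, limma). Of the 4, Itga1 alone kept its call in all 6 refits. Itga2 and Itgb1 passed in 1 refit each, that lacking YFP-positive replicate 3 (highest adjusted p = 0.102 and 0.156), and Itga6 in none (highest adjusted p = 0.135). Rpsa and Bcam, which did not pass, differed by -1.35 and 0.82, and the collagen receptor kinases Ddr1 and Ddr2 by 0.03 and 0.02.

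Of 34 other basement membrane and matrix genes, 8 rose and 0 fell (14 at an unadjusted p under 0.05, median 0.32). Bgn, a small proteoglycan of bone and vessels, rose 65.4-fold, from 5.52, 6.64 and 4.41 to 11.55, 11.81 and 11.32 (6.03 ± 0.54, adjusted p = 0.00362, limma). Ccn1 and Ccn2, matricellular proteins, rose 15.2-fold and 14.4-fold, and Npnt, an integrin ligand of basement membranes, 8.34-fold. These 4 kept their calls in all 6 refits. Tgfbi, Egfl7, Hmcn1 and Fbln5 rose 1.59-fold to 2.50-fold. Tgfbi, Hmcn1 and Fbln5 lost their calls in all 6 refits, and Egfl7 kept its call in 1, that lacking YFP-negative replicate 2 (highest adjusted p = 0.150, for Egfl7). Tinagl1 and Ecm1, which did not pass, differed by 1.36 and 2.23, and Ecm1 passed without YFP-negative replicate 2 (refits ranged from 0.0483 to 0.232). Lum and Dcn, proteoglycans of fibrillar collagen, measured 2.77 to 2.92 and 3.12 to 3.48 in YFP-positive samples, all under the array medians.

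**Figure D4:**
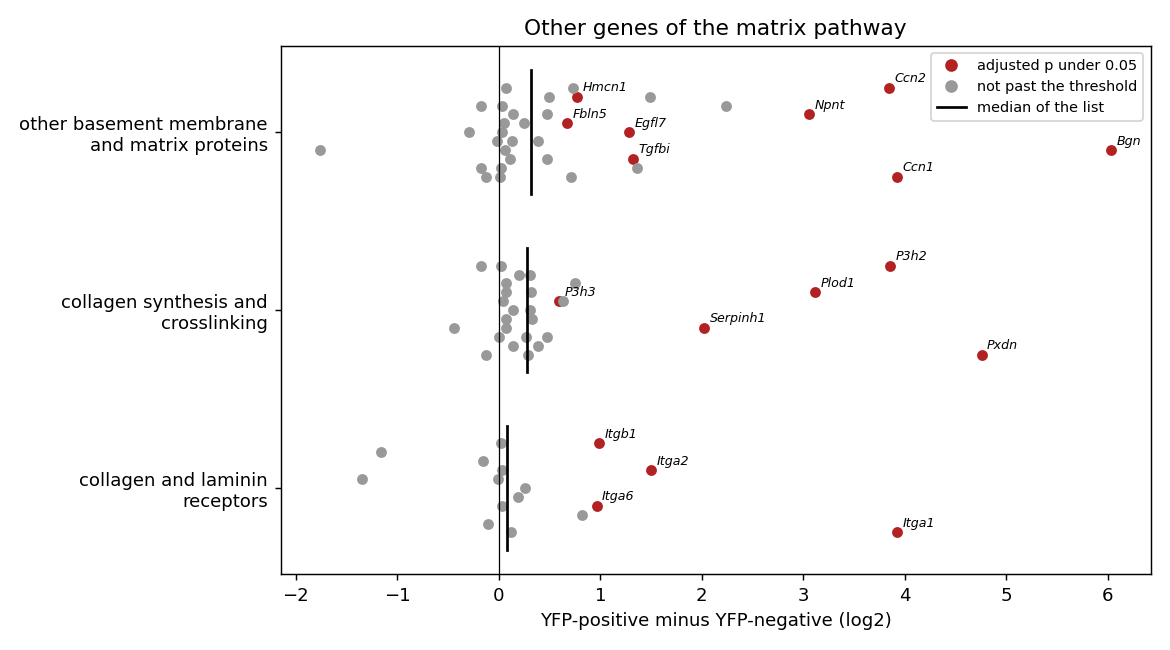
Each point is the YFP-positive minus YFP-negative difference of 1 gene on the log2 scale, in 3 lists of genes that modify, bind or accompany the matrix; red and named points have an adjusted p under 0.05 and black lines are list medians. In each list a few genes lie far to the right (Bgn at 6.03, Pxdn at 4.76, Itga1 at 3.92) while the medians lie between 0.08 and 0.32.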

How the data were processed

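Per the labels' protocols, 500 pg of RNA per sample was amplified and biotin-labelled for arrays. The deposited table holds log2 values for 41345 probes; that the scale is log2 was read from the values, and the submitters' processing notes name Partek without a version. How the authors corrected background, summarised and normalized is not stated in the labels read here. Of the probes, 23521 had 1 gene symbol, 1814 several and 16010 were unnamed. Each gene took its probe of highest mean over the 6 arrays. The test was limma 3.58.1 under R 4.3.3 (lmFit, eBayes, population as the only term, two-sided, Benjamini-Hochberg over 22180 genes, threshold 0.05). On simulated data the fit recovered 78% of 2-unit and 98% of 4-unit log2 changes, 100 genes of each size, with 8 false calls. The simulated noise was independent and normal, with the same SD in both populations for a given gene. In the data some SDs were unequal (Lama4 1.27 in YFP-positive and 0.13 in YFP-negative samples). These shares may therefore not hold for the data. The genes and lists were chosen with earlier results of these data known. Named were all members past the threshold, the 6 largest differences that missed it, a fixed set of vascular and stromal matrix genes, and from each pathway list up to 8 genes that passed and 2 that did not; Lox, Ddr1, Ddr2, Lum, Dcn and some marker genes are named outside this rule. Alternatives changed the probe rule, the filter, the normalization, the moderation and the replicate block, or left out 1 array. The number of arrays limits the precision.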

Additional observations from a re-analysis of the deposited data

How the results depend on the processing

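Of the 59 differences, 24 changed sign under at least 1 alternative (Col6a1 from 0.11 to between -0.18 and 0.27, for example), and 0 of these 24 passed the threshold under any of the alternatives run. Marker genes that did not pass were not compared across alternatives. The 9 genes that rose were the same 9 with the mean of probes, with quantile normalization and with a mean-variance trend. Among genes above the median level Col4a1 and Lama4 joined them. That filter took the mean over all 6 arrays, with a median of 3.96. Lama4, Nid2, Lamb1 and Lamb2 had YFP-negative means of 3.57 to 3.79 and cleared it only through their YFP-positive values. Their calls under this filter are therefore not independent support. The unmoderated model called 5 of the 9, losing Col4a2, Lamb1, Lamb2 and Lamc1; it called 180 of all genes (145 higher, 35 lower), and 1, 1 and 2 higher genes of the synthesis, receptor and other matrix lists. Replicate numbers were shared across populations, but same-numbered arrays deviated together only weakly (r = 0.0985, 0.0806 and 0.167 across genes), although each array correlated best with its own number. With the replicate block, 580 genes passed (412 higher, 168 lower), 8 of the 9 members without Col4a2, and 4, 2 and 4 genes of the 3 lists. With the trend, 2 receptors passed. Leaving out 1 array gave 430 to 1185 genes (319 to 668 higher, 111 to 517 lower), 6 to 11 members, and 3 to 4, 1 to 3 and 4 to 6 higher genes of the 3 lists. These fits have fewer samples. Signal near the array medians limits what can be said of the low genes.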
